A study of Mus musculus with 5 samples.

Results

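Transcripts of 10 genes of the NF-kappaB system were followed in lung endothelial cell isolates: the 5 transcription factor subunits Nfkb1, Nfkb2, Rela, Relb and Rel, the inhibitors Nfkbia and Nfkbie, and the feedback genes Tnfaip3, Traf1 and Birc3. They were taken by gene symbol from a table of 49315 genes, and each of the 10 symbols matched 1 row. The mice were wild type (WT, 3 libraries) or carried an endothelial-specific knockout of TET2 (TET2KO, 2 libraries), a dioxygenase that oxidises 5-methylcytosine in DNA. All of the mice, controls included, had received Angiotensin II by chronic infusion for 28 days, so no library shows the genes without the hormone. The labels did not give the age or strain of the mice, the Cre driver, the deleted exons, how endothelial cells were isolated or whether each library came from its own animal. The p-values therefore cover no more than the variation from library to library, which may be technical in part.

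NF-kappaB is a family of dimeric transcription factors built from the subunits of these genes. In resting cells IkB proteins such as those of Nfkbia and Nfkbie hold the dimers in the cytoplasm. Ligands such as tumour necrosis factor or interleukin-1 activate the IkB kinase, IkB is degraded and the dimers enter the nucleus. There they switch on inflammatory genes and also their own brakes, Nfkbia and Tnfaip3 among them. In endothelium the pathway is known for inducing adhesion molecules and chemokines that recruit leukocytes, and in leukocytes for activation and survival.

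The isolates were not pure, and the library composition differed between the groups. CPM values (counts relative to library totals) below were scaled by TMM factors, which correct library totals for composition. Total counts per library lay between 27346804 and 35440257. All 15 endothelial markers were counted in each library, and their summed level was 2689 to 4614 CPM for WT and 6083 to 6125 CPM for TET2KO. The 10 pan-leukocyte markers summed to 6273 to 10649.8 CPM for WT and 5401.5 to 5432 CPM for TET2KO. Ptprc, the leukocyte antigen CD45, stood at 1372 ± 155 CPM for WT and 1184.5 ± 29.7 CPM for TET2KO (SD, n = 3 and 2). WT replicate 2 stood apart: alveolar macrophage markers summed to 17761 CPM there and to 1234 to 3843.5 CPM in the other 4 libraries, and B cell markers to 1527 CPM there and to 2363 to 5519 CPM in the others. Tet2 counted over the whole gene stood at 148.6 ± 22.3 CPM for WT and 150.8 ± 16.5 CPM for TET2KO (SD, n = 3 and 2), which checks nothing about the genotype, because the labels do not name the deleted exons. The authors' deposited table of fold changes did not follow the labelled groups. For 100% of the 12175 genes with a summed normalized count over 500, its log2 fold change lay within 0.01 of the ratio of WT replicate 3 with both TET2KO libraries over WT replicates 1 and 2, against 3.22% of genes for TET2KO over all 3 WT libraries. The matching contrast was found by comparing the table with all 10 ways to set 3 libraries against 2, and the highest match among the other 9 was 4.88%. The labels put WT replicate 3 with WT and are followed here, and the fold changes of the 10 genes are also given without it, with those of other named pathway genes beside their values. Whether that library or the table carries the wrong group was not tested.

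The genes were expressed at levels that spanned a wide range, and the inhibitors and feedback genes, not the subunits, stood at its top and bottom. Levels between genes are compared in TPM, transcript abundance scaled by gene length and library total. Nfkbia, which encodes IkB alpha, was the highest, with 1074, 1664 and 1127 TPM in WT replicates 1 to 3 and 1189 and 1659 TPM in TET2KO replicates 1 and 2. Its mean level was above that of 99.64% of the genes tested. Tnfaip3, a ubiquitin-editing enzyme that shuts off signalling, followed at 528 to 691 TPM. The third to sixth places were held by Rel, Nfkb2, Rela and Birc3, with means of 265, 263, 233 and 216 TPM. The ranges of neighbours in this group overlapped, and Rel was above Nfkb2 in 2 of 5 libraries. Nfkbie, the IkB epsilon gene, stood at 111 to 131 TPM, above Nfkb1 (61.4 to 96.2 TPM) in 5 of 5 libraries. Nfkb1 and Relb overlapped, and Traf1, an adaptor of tumour necrosis factor receptors, was the lowest at 10.5 to 28.9 TPM.

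**Figure D1:**
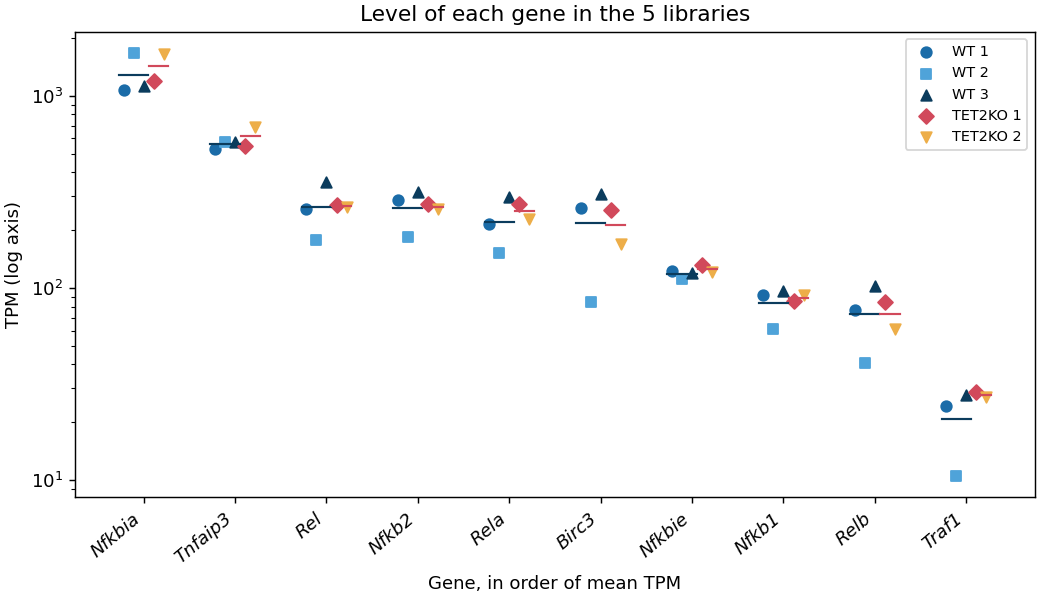
Level of each of the 10 genes in TPM on a log axis, with 1 point per library and short lines at the mean of the 3 WT (dark blue) and the 2 TET2KO (red) libraries. Nfkbia lies at 1074 TPM or more and Traf1 at 28.9 TPM or less in every library, and the points of the groups overlap for every gene.

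Promoter sequences were available for 8 of the 10 genes from RefSeq (GRCm38.p6), and not for Nfkb1 and Relb. The 250 bases before each annotated start were searched on both strands for the kappa B consensus, the motif that NF-kappaB dimers bind. A match was found in 5 of the 8 genes (62.5%), against 8.23% of the 27025 genes in the table and 7.25% of its 32851 windows. The consensus reads nearly the same on both strands, so overlapping matches were merged into 1 stretch. The windows below are shown because they belong to both inhibitors and Tnfaip3, the brakes of the loop, to Rel, the subunit with a match in its only window, and to Birc3, the gene that varied most and had no match. Capitals mark the kappa B matches, and bases inside annotated exons were left out.
Nfkbia: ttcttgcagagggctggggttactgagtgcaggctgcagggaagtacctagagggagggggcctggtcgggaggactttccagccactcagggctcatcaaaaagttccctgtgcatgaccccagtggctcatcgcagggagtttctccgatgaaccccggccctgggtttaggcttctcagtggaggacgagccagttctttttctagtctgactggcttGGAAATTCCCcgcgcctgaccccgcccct
Tnfaip3: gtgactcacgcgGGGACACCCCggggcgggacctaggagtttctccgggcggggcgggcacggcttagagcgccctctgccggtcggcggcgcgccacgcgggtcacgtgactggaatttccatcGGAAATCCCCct
Nfkbie: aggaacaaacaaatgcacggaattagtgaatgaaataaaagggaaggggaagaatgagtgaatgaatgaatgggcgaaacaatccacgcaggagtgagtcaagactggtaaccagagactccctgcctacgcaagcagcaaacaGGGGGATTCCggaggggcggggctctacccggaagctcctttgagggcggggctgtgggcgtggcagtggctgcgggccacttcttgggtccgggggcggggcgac
Rel: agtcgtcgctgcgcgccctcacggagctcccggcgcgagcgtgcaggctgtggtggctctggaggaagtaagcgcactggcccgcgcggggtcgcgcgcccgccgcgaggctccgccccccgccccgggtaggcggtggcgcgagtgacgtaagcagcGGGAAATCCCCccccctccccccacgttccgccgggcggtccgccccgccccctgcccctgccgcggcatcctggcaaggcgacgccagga
Birc3: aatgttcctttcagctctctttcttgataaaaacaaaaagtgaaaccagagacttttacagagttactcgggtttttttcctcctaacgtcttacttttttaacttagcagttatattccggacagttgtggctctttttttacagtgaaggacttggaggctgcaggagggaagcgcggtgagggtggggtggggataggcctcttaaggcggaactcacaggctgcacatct
The Nfkbia stretch is chr12:55492648-55492897 (minus strand), and its match spans the bases 29 to 20 before the start. That of Tnfaip3 is chr10:19015411-19015547 (minus strand), with matches at 125 to 116 and 12 to 3 bases before the start. Nfkbie is shown at chr17:45555450-45555699 (plus strand, match at 106 to 97), Rel at chr11:23770971-23771219 (minus strand, match at 92 to 82) and Birc3 at chr9:7873187-7873420 (minus strand). Nfkb2, the remaining gene with a match, held matches in each of its 3 windows. A further Tnfaip3 window, at its other annotated start, held none and is not shown. Rela and Traf1 had none in this window, which says only that the letters are not there. A match is a description of the sequence, not a measured binding site.

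None of the 10 genes differed between TET2KO and WT beyond the spread between libraries. With edgeR (quasi-likelihood test, Benjamini-Hochberg adjustment over the 18727 genes tested), 0 of 10 passed an adjusted p of 0.05, where percent called over all genes was 0. The lowest adjusted p among them was 0.873. At an unadjusted p under 0.05 the count was 0 of 10, against 5.86% of all genes. DESeq2 called 0 of 10 as well (0.395% of all genes with an adjusted p), and limma-voom 0 of 10 (0 of all genes tested). On simulated counts edgeR missed most of the changes put in and limma-voom missed all of them. Their counts of 0 therefore do not show that the genes were unchanged. The groups overlapped for all 10 genes, while over all genes tested the TET2KO libraries lay wholly above WT for 12.4% and wholly below for 12.4%.

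Among the subunits, Nfkb1, whose product is a precursor cut to a DNA-binding subunit, was nearly level. It stood at 316, 281 and 341 CPM for WT and at 283 and 303 CPM for TET2KO, so the TET2KO libraries fell within the WT range. Its log2 fold change, TET2KO relative to WT, was -0.09 (SE 0.17, 95% interval -0.52 to 0.34). Nfkb2, the precursor subunit of the non-canonical arm, stood at 269.6, 229 and 305 CPM for WT and at 245 and 233 CPM for TET2KO. Both TET2KO values lay between WT replicates 2 and 1. The log2 fold change was -0.16 (SE 0.19, 95% interval -0.63 to 0.30). Exons of Nfkb2 (chromosome 19, 46304320 to 46312385, plus strand, GRCm38) overlap those of Psd and of a long non-coding RNA on the opposite strand, and since no source used here gives the strand setting of the counting, their reads could not be told apart.

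Rela, the subunit with the main transactivation domain of the canonical dimer, had the same mean in the groups. It stood at 166, 157 and 238 CPM for WT and at 204 and 170.1 CPM for TET2KO, with WT replicate 3 the highest of the 5. The log2 fold change was 0.00 (SE 0.24, 95% interval -0.59 to 0.59). Relb, the partner of the processed Nfkb2 product, varied more. It stood at 84.9, 59.8 and 117 CPM for WT and at 89.9 and 65.2 CPM for TET2KO. WT replicate 3 was again the highest and WT replicate 2 the lowest, and the log2 fold change was -0.17 (SE 0.32, 95% interval -0.96 to 0.62). Rel, which encodes c-Rel, a subunit known mainly from lymphoid cells, stood at 552, 504 and 781 CPM for WT and at 553 and 539 CPM for TET2KO. Only WT replicate 3 departed from a narrow band, and the log2 fold change was -0.17 (SE 0.25, 95% interval -0.80 to 0.46).

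Of the inhibitors, Nfkbia varied more between single libraries. It stood at 484, 996 and 523 CPM for WT and at 513 and 717 CPM for TET2KO. WT replicate 2 was 1.80 times the geometric mean of the other 4 libraries, TET2KO replicate 2 came next, and the remaining 3 lay close together. The log2 fold change was -0.12 (SE 0.39, 95% interval -1.08 to 0.84), and without WT replicate 2 it was 0.32 (SE 0.21, edgeR adjusted p = 0.65). Nfkbie was the steadiest inhibitor, at 85.4, 102 and 85.7 CPM for WT and at 86.8 and 80.7 CPM for TET2KO. Its libraries spanned 1.27-fold, against 2.06-fold for Nfkbia. The log2 fold change of Nfkbie was -0.12 (SE 0.16, 95% interval -0.52 to 0.28), an interval that spans 0.70 to 1.21 times the WT level.

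The feedback genes differed from each other in how far they varied between libraries. Tnfaip3 stood at 1092, 1579.9 and 1225 CPM for WT and at 1079.7 and 1368.5 CPM for TET2KO. It was highest in WT replicate 2 and next in TET2KO replicate 2, as Nfkbia was, with a log2 fold change of -0.09 (SE 0.27, 95% interval -0.77 to 0.60). By TMM-scaled CPM, Traf1 was the 1 gene of the 10 with a higher mean in TET2KO beyond rounding. In TPM the means of other genes were higher as well, Nfkbia and Rela among them, while those of Relb and Birc3 were not. Traf1 stood at 61.1, 35 and 71.7 CPM for WT and at 69.7 and 65.2 CPM for TET2KO. WT replicate 2 alone was low. WT replicate 3 lay above both TET2KO libraries in CPM, but in TPM TET2KO replicate 1 was the highest (28.9 TPM, against 27.6 TPM in WT replicate 3). The log2 fold change was 0.27 (SE 0.31, 95% interval -0.51 to 1.05), and without WT replicate 2 it was 0.05 (SE 0.14, edgeR adjusted p = 0.932). Birc3, a ubiquitin ligase that protects cells from death and restrains the non-canonical kinase, varied most. It stood at 373, 160.5 and 457 CPM for WT and at 350.2 and 233 CPM for TET2KO, a 2.85-fold span. The log2 fold change was -0.18 (SE 0.47, 95% interval -1.34 to 0.98).

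**Figure D2:**
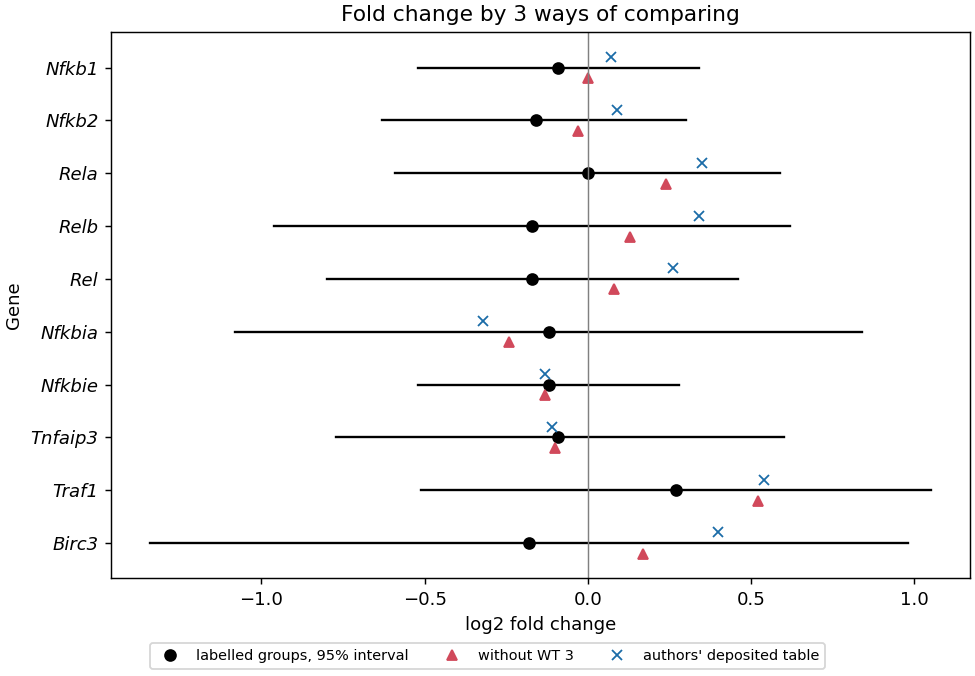
log2 fold change of each gene: TET2KO relative to WT by edgeR with its 95% interval (black), the same without WT replicate 3 (red triangles), and the values of the authors' deposited table (blue crosses), which compare WT replicate 3 and both TET2KO libraries with WT replicates 1 and 2. All 10 black intervals cross 0, and 5 genes, Nfkb1, Nfkb2, Relb, Rel and Birc3, have a black point below 0 and a cross above 0. Rela has its black point at 0.00 and its cross at 0.35.

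The sign of these small differences depended on the scaling and, for several genes, on which single library was left out. With TMM factors the median log2 fold change of the 10 genes was -0.12, beside -0.08 over all genes tested, and 9 of 10 were below 0 (Rela by less than rounding), beside 58.4% of all genes. With library totals the median was 0.03 beside 0.06 for all genes, and 4 of 10 were below 0. On log2(TPM + 1) it was 0.13 beside 0.13, and 0 of 10 were below 0. The list thus stayed within 0.04 of the median of all genes under these 3 scalings. Without WT replicate 3 the edgeR log2 fold change was 0.24 for Rela (SE 0.19), 0.13 for Relb (SE 0.26), 0.08 for Rel (SE 0.21) and 0.17 for Birc3 (SE 0.45). It was 0.52 for Traf1 (SE 0.30), -0.24 for Nfkbia (SE 0.43), -0.13 for Nfkbie (SE 0.19), -0.10 for Tnfaip3 (SE 0.33), -0.03 for Nfkb2 (SE 0.19) and 0.00 for Nfkb1 (SE 0.19). The lowest edgeR adjusted p of the 10 without that library was 0.653. Leaving out other libraries turned other signs. Nfkbia was at 0.32 and Tnfaip3 at 0.11 without WT replicate 2, and at 0.10 and 0.07 without TET2KO replicate 1. Relb was at 0.04 and Birc3 at 0.09 without TET2KO replicate 2.

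In the authors' deposited table, whose contrast was the one described above, none of the 10 genes passed an adjusted p of 0.05, where 2.16% of all genes with an adjusted p did. The authors' deposited table gave a log2 fold change of 0.54 for Traf1 (adjusted p = 0.378), 0.40 for Birc3, 0.35 for Rela, 0.34 for Relb and 0.26 for Rel. It gave -0.32 for Nfkbia (adjusted p = 0.736), -0.13 for Nfkbie and -0.11 for Tnfaip3 in the authors' deposited table, and 0.09 and 0.07 for Nfkb2 and Nfkb1. The shorter deposited table of 217 genes held 0 of the 10.

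Among the libraries, the 10 genes fell into patterns that did not follow genotype. With TMM scaling, Nfkbia, Nfkbie and Tnfaip3 were highest in WT replicate 2. They lay 0.68, 0.22 and 0.33 above their mean over the 5 libraries on the log2 CPM scale. In TPM this held for Nfkbia only narrowly, at 1664 TPM there and 1659 TPM in TET2KO replicate 2. Nfkbie was lowest in WT replicate 2 in TPM (111 TPM), and Tnfaip3 was highest in TET2KO replicate 2 (691 TPM). By TMM the 5 subunits, Traf1 and Birc3 were all lowest in WT replicate 2 and highest in WT replicate 3. In TPM they were lowest in WT replicate 2 as well. Birc3 lay 0.88 below its mean in WT replicate 2, Traf1 0.74 below and Relb 0.44 below. Birc3 and Relb lay 0.63 and 0.53 above their means in WT replicate 3. Marker lists of other cells moved across the same libraries. Alveolar macrophage markers lay 2.35 above their mean in WT replicate 2 and 1.49 below it in WT replicate 3, while B cell markers lay 1.06 below and 0.80 above. In bulk libraries fewer cells of a type and less RNA per cell cannot be told apart, and the part of cell composition in these patterns was not tested.

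**Figure D3:**
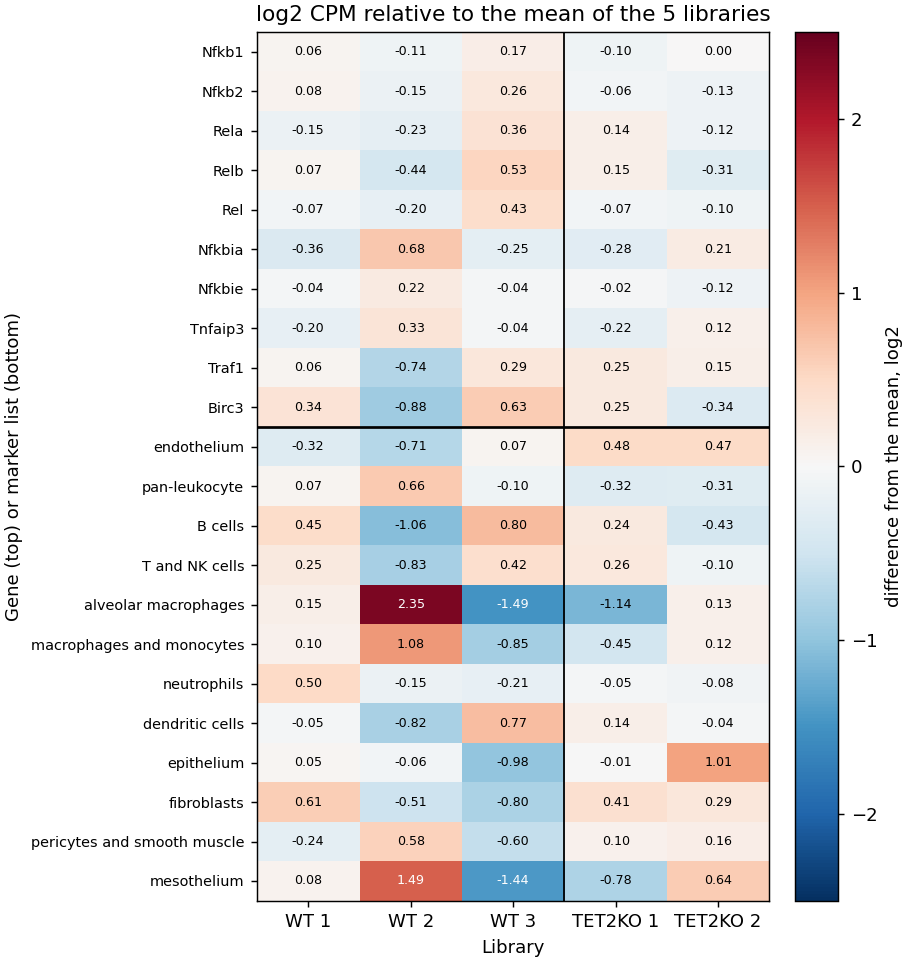
log2 CPM (TMM-scaled) relative to the mean of the 5 libraries, printed in each cell, for the 10 genes (above the line) and for the summed markers of 12 cell types (below), with libraries in columns. On this scale WT replicate 2 holds the lowest value of 7 of the 10 genes and the highest of Nfkbia, Nfkbie and Tnfaip3.

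Ratios of levels within a library compare members of the system directly. The ratio of Nfkbia to Rela, inhibitor to subunit, was 5.01, 10.91 and 3.79 in TPM in WT and 4.34 and 7.26 in TET2KO. It was highest in WT replicate 2 and the groups overlapped. The ratio of Tnfaip3 to Birc3 was 2.03, 6.82 and 1.86 in WT and 2.14 and 4.07 in TET2KO, with the same library at the top. The ratio of Nfkb2 to Nfkb1, the precursor subunits, was steady at 3.13 ± 0.14 in WT and 3.00 ± 0.25 in TET2KO (SD, n = 3 and 2). Rel over Rela was 1.17 to 1.21 in WT and 0.99 and 1.15 in TET2KO, the 1 ratio given here whose groups did not overlap. For single genes by CPM, the groups lay apart in each direction for 12.4% of all genes tested. The share over other ratios was not computed. These ratios were chosen after the values were seen and were not tested.

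Likeness of pattern was measured over the 5 libraries as the largest difference, in any library, between the mean-centred log2 CPM of a pair of genes, where 0 is an identical pattern. Among the 10, the closest pair was Nfkb1 and Nfkb2 (0.12) and the most unlike pair Nfkbia and Birc3 (1.56). Each gene was also compared with 10150 genes whose log2 CPM averaged 3 or more. The nearest to Tnfaip3 was Nfkbib, the IkB beta gene (0.0725), with Mrps34 almost as near (0.0738). To Nfkbia it was Nfe2l2 (0.061), and to Nfkbie it was Polr1e (0.0216). The nearest to Birc3 was Hip1r (0.0503) and to Traf1 Tnfrsf14, a receptor of the tumour necrosis factor family (0.0508). Rapgef4 was almost as near to Traf1 (0.0542). For the subunits the nearest were Gatad2b (Nfkb1, 0.021), Ubald2 (Nfkb2, 0.0117), Ppp2r2d (Rela, 0.0333), Stk11ip (Relb, 0.054) and Mynn (Rel, 0.048). Whether these distances are smaller than those found for other genes was not tested.

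Other genes of the pathway were described from 6 lists. None of their genes passed the adjusted threshold by edgeR, and the list medians are read beside -0.08 for all genes tested. Of the 4 IkB-related genes outside the 10, 2 were above 0 and 2 below (median 0.01). Nfkbiz, an inducible nuclear IkB, stood at 293, 389 and 430.5 CPM for WT and at 475 and 494.5 CPM for TET2KO. Its TET2KO libraries lay above all WT libraries, as for 12.4% of all genes tested, and it was the 1 gene of this list whose groups did not overlap. The difference of 0.39 on the log2 scale (SE 0.22) did not pass (edgeR adjusted p = 0.864). Without WT replicate 3 it was 0.54 (SE 0.24). The part of cell composition in this difference was not tested. Nfkbid stood at 289.7 ± 73.7 CPM for WT and 247 ± 50.7 CPM for TET2KO (SD, n = 3 and 2). Nfkbib stood at 53.5 ± 9.49 and 47.6 ± 6.94 CPM, and Bcl3, a nuclear coactivator of the family, at 53.6 ± 24.4 and 61.0 ± 9.96 CPM.

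In the list of kinases and adaptors upstream, 20 of 27 genes were below 0 with a median of -0.14 by TMM, which was 0.01 with library totals, 0.07 on log2(TPM + 1) and -0.08 without WT replicate 3. With TMM scaling, both TET2KO libraries lay below WT for 8 of the 27 and above for 1, against 12.4% of all genes in each direction. Pan-leukocyte markers were lower in TET2KO in the same libraries, as given above, and their part in this was not tested. The exception above WT was Card10, the scaffold that links receptors to the kinase outside the blood lineage. It stood at 63.7, 58.2 and 70.7 CPM for WT and at 138.6 and 121.3 CPM for TET2KO. Card10 had the smallest p of the list, with a log2 fold change of 1.02 (SE 0.16, edgeR adjusted p = 0.740), and it was the 1 pathway gene that DESeq2 called (1.03, SE 0.23, DESeq2 adjusted p = 0.00678). The edgeR and limma-voom tests did not call it, and without WT replicate 3 its edgeR log2 fold change was 1.12 (SE 0.18, edgeR adjusted p = 0.443). Endothelial markers were higher in TET2KO in the same libraries, and their part in this difference was not tested. Irak2, an interleukin-1 receptor kinase, stood at 123.9 ± 16.5 and 93.0 ± 1.47 CPM (SD, n = 3 and 2). Its log2 fold change was -0.41 (SE 0.17, edgeR adjusted p = 0.864), and -0.40 without WT replicate 3. Malt1, a paracaspase, stood at 306 ± 64.3 and 239 ± 39.7 CPM, and the kinase gene Tbk1 at 122 ± 15.1 and 105.6 ± 2.34 CPM.

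In the list of other brakes and linear ubiquitin enzymes, 7 of 11 genes were below 0 with a median of -0.02 by TMM, 0.09 by library totals and 0.19 by log2(TPM + 1). With TMM scaling, for 3 of 11, Tnip1, Tank and Zc3h12a, both TET2KO libraries lay below WT, against 12.4% of all genes. Of the 10 pan-leukocyte markers, 5 lay wholly below WT in the same libraries, and their part in this was not tested. Tnip1, the partner of TNFAIP3, stood at 119 ± 12.1 CPM for WT and 95.5 ± 1.94 CPM for TET2KO (SD, n = 3 and 2). Its log2 fold change was -0.31 (SE 0.16, edgeR adjusted p = 0.864), and -0.28 without WT replicate 3. Tank, an adaptor of the kinase TBK1, stood at 61.4 ± 6 and 50.3 ± 0.527 CPM. Zc3h12a, which encodes a ribonuclease that degrades inflammatory transcripts, stood at 237 ± 65.3 and 179 ± 0.565 CPM. Tnip3 went the other way and was scarce, at 2.72 ± 0.78 and 4.25 ± 1.91 CPM with overlapping groups. Its log2 fold change was 0.65 (SE 0.41, edgeR adjusted p = 0.864). Rbck1 was nearly level at 152.9 ± 14.3 and 151.5 ± 4.87 CPM.

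Ligands and receptors varied widely between libraries. Of 10 ligands 5 were below 0, with a median of -0.01 by TMM, 0.10 with library totals and 0.22 on log2(TPM + 1). Of 19 receptors 12 were below 0, with a median of -0.18 by TMM, -0.06 with library totals, 0.15 on log2(TPM + 1) and 0.17 without WT replicate 2. Tnf, the founding ligand, stood at 91.4, 456.9 and 132 CPM for WT and at 164.0 and 386.6 CPM for TET2KO. Its highest levels were in WT replicate 2 and TET2KO replicate 2, the libraries that were also highest in Nfkbia and Tnfaip3 by CPM. Il1b stood at 128.7, 657 and 165.0 CPM for WT and at 187 and 300.2 CPM for TET2KO, highest in the same libraries. The log2 fold changes were 0.28 (SE 0.76) for Tnf and -0.38 (SE 0.75) for Il1b, both inside their errors, and without WT replicate 3 they were 0.03 (SE 0.83) and -0.67 (SE 0.78). Tlr2, a receptor of bacterial lipoproteins, stood at 311, 996 and 201 CPM for WT and at 223 and 539 CPM for TET2KO. Il1r1, the signalling receptor of interleukin-1, stood at 16.5 ± 1.89 CPM for WT and 25.3 ± 0.0488 CPM for TET2KO (SD, n = 3 and 2). Its log2 fold change of 0.61 (SE 0.18) had an unadjusted p of 0.015 and failed the correction (edgeR adjusted p = 0.740), and it was 0.70 without WT replicate 3.

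With all 5 libraries, target genes were the pathway list whose median lay farthest from that of all genes. Without TET2KO replicate 2 this order did not hold: the targets were at 0.02 and the ligands at -0.19, beside -0.06 for all genes. Of 34 tested targets, 26 were above 0 (76.5%, beside 41.6% of all genes), and the median was 0.37. Both TET2KO libraries lay above WT for 7 of 34 and below for 0 of 34, against 12.4% of all genes in each direction. The unadjusted p was under 0.05 for 4, against 5.86% of all genes, and none passed the correction. All 4 were higher in TET2KO, as were 997 of the 1098 genes under that p over all genes tested. Ccl2, a monocyte chemokine, stood at 10.8 ± 1.95 CPM for WT and 18.1 ± 4.47 CPM for TET2KO (SD, n = 3 and 2), and its log2 fold change was 0.75 (SE 0.25, edgeR adjusted p = 0.784). Ptgs2, the inducible cyclooxygenase, stood at 57.1 ± 12.4 and 95.8 ± 24.5 CPM, a log2 fold change of 0.75 (SE 0.26, edgeR adjusted p = 0.792). Ptx3, a secreted pattern recognition protein, was scarce at 0.957 ± 0.106 and 1.71 ± 0.370 CPM. Cx3cl1, a membrane-bound chemokine of endothelium, completed the 4 at 46.4 ± 3.54 and 61.8 ± 7.25 CPM. Icam1, the leukocyte adhesion molecule that is a classical target, stood at 269 ± 99.0 and 365.6 ± 67.3 CPM with overlapping groups. Cx3cl1 and Icam1 were chosen after their values were seen. The abundant targets Junb, Ier3 and Cxcl2 had log2 fold changes of -0.15 (SE 0.28), 0.33 (SE 0.48) and 0.09 (SE 0.60). Without WT replicate 3 the log2 fold changes were 0.71 for Ccl2, 0.95 for Ptgs2, -0.22 for Junb, 0.67 for Ier3 and -0.20 for Cxcl2. By the median over their genes, marker lists of several cell types were higher in the same TET2KO libraries. Median log2 fold changes were 0.78 over 15 endothelial markers, 1.64 over 6 of mesothelium, 0.82 over 10 of epithelium, 0.49 over 7 of pericytes and smooth muscle and 0.45 over 8 of fibroblasts. TET2KO lay wholly above WT for 15, 5, 4, 3 and 2 of them. By summed level, among these lists, the groups separated for the endothelial markers only. Summed mesothelium markers were 55.5 to 424.7 CPM for WT and 88.1 and 235.7 CPM for TET2KO. The summed levels of the epithelium, pericyte and fibroblast lists overlapped as well. The part of these cells in the target values was not tested. Leaving out WT replicate 3 gave a target median of 0.47, with 25 of 34 above 0, and leaving out WT replicate 1 gave 0.23. Leaving out WT replicate 2 gave 0.54 and TET2KO replicate 1 gave 0.38.

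**Figure D4:**
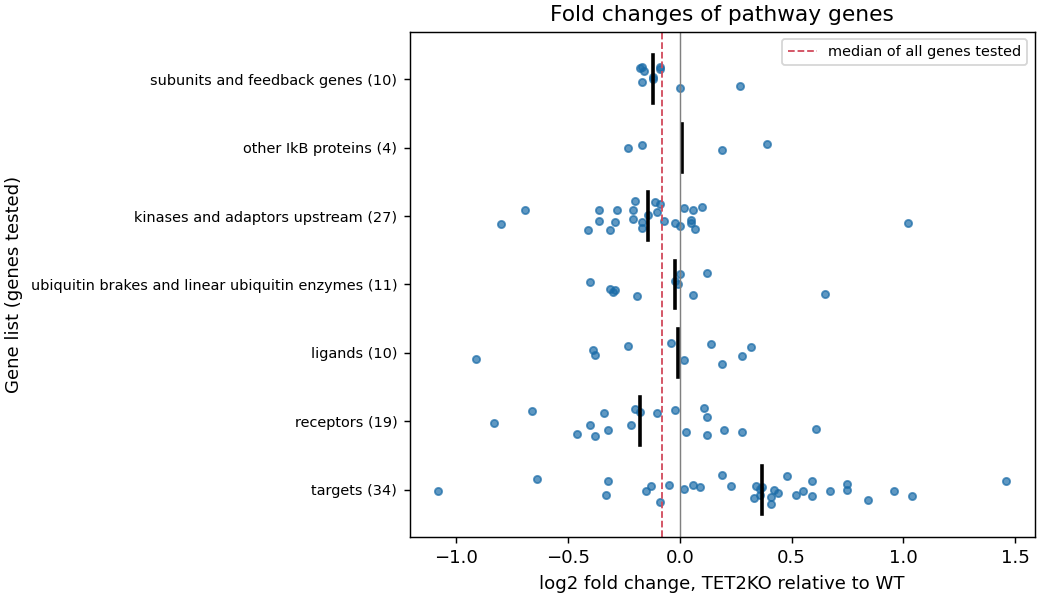
log2 fold change (TET2KO relative to WT, edgeR) of each gene in the 10 and in 6 lists of other pathway genes, 1 point per gene with random vertical spread, a black line at each list's median and a dashed line at the median of all genes tested. The 10 genes cluster near the dashed line at -0.08, the target list has its median at 0.37, and Card10 is the right-most point of the upstream list at 1.02.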

How the data were processed

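Poly(A) RNA was sequenced as paired-end reads on an Illumina NovaSeq, per the labels' protocols. The authors trimmed with Trimmomatic 0.36, aligned to GRCm38 with STAR 2.5.2b, and used featureCounts (Subread 1.5.2) and DESeq2, per the submitters' processing notes. The authors deposited whole-number read counts and TPM values for 49315 genes. Their deposited comparison table held log2 fold changes, p-values and counts divided by a size factor (a normalized signal) for 18019 genes, per the file headers. Low-count genes were removed by filterByExpr, and edgeR 4.0.16 (quasi-likelihood, TMM, genotype only) was run in R 4.3.3, with Benjamini-Hochberg adjustment over 18727 genes at a threshold of 0.05. Each SE was the log2 fold change over the root of its F statistic, and 95% intervals used its t quantile. Log2 CPM used a prior count of 2. On simulated counts edgeR missed most of the changes and limma-voom missed all of them. DESeq2 recovered more but also made more false calls.

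The 10 genes and the lists were chosen with earlier results of these data known. Named genes were the 10, Tet2, Pecam1, Cdh5, Ptprc, the 3 genes of each pathway list with the smallest p and the 3 with the highest TPM, and the 2 nearest patterns of each of the 10, of which a selection is printed; 1 gene of the upstream list is not reported here. Alternatives were DESeq2 1.42.0, limma 3.58.1 (voom, and on log2 TPM plus 1 or 0.1), other scalings and filters, a replicate block and each library left out. Of the 12 marker lists, those of T and NK cells, neutrophils, dendritic cells, epithelium, fibroblasts, pericytes and mesothelium are given in the plot of library patterns. Gene positions came from GENCODE M21 (GRCm38) and promoters from RefSeq.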

Additional observations from a re-analysis of the deposited data

How the results depend on the processing

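Over 10 genes and 11 settings on all 5 libraries, no setting took any of the 10 genes past the adjusted threshold, and 24 of 110 values changed sign, with values that round to 0.00 counted as having none. Rela, at 0.00 with TMM, lay between 0.00 and 0.23 in these settings. With library totals the log2 fold change was 0.03 for Nfkb1, 0.07 for Nfkbia, 0.03 for Nfkbie and 0.07 for Tnfaip3, and with upper quartile factors 0.01 for Tnfaip3. On log2(TPM + 1) it was 0.12 for Nfkb1, 0.06 for Nfkb2, 0.07 for Relb, 0.07 for Rel, 0.15 for Nfkbia, 0.09 for Nfkbie, 0.13 for Tnfaip3 and 0.13 for Birc3. On log2(TPM + 0.1) the values were 0.12 for Nfkb1, 0.06 for Nfkb2, 0.08 for Relb, 0.07 for Rel, 0.15 for Nfkbia, 0.09 for Nfkbie, 0.13 for Tnfaip3 and 0.14 for Birc3. The median of all genes was 0.13 and 0.17 in these TPM fits, against -0.08 with TMM, and the median of the targets was 0.62 and 0.66, against 0.37 with TMM. With the replicate block, Relb was at 0.10, Rel at 0.05, Birc3 at 0.22, Rela at 0.20, Traf1 at 0.54 (SE 0.23) and the target median at 0.52. It called 0 of all genes tested, with 2982 at an unadjusted p under 0.05 against 1098 without it. The replicate numbers were shared by 2 pairs only, and the correlations of their deviations from the group means across genes were 0.22 and 0.49. WT replicate 3 had no partner, so in the block fit it added nothing to the estimated genotype difference. The block values are therefore no separate check from those without WT replicate 3 (0.52 for Traf1 and 0.17 for Birc3). No label says what a shared number stands for. With 1 library left out, the log2 fold change ranged from -0.15 to 0.00 for Nfkb1, -0.24 to -0.03 for Nfkb2, -0.14 to 0.24 for Rela, -0.42 to 0.13 for Relb, -0.26 to 0.08 for Rel, -0.38 to 0.32 for Nfkbia, -0.18 to 0.00 for Nfkbie, -0.27 to 0.11 for Tnfaip3, 0.05 to 0.52 for Traf1 and -0.51 to 0.17 for Birc3. List medians with 1 library left out ranged from -0.16 to 0.04 for the 10 genes, -0.08 to 0.18 for other IkB genes, -0.22 to -0.08 for upstream kinases, -0.22 to -0.03 for brakes, -0.19 to 0.19 for ligands, -0.15 to 0.17 for receptors and 0.02 to 0.54 for targets. DESeq2 called 61 genes over all genes tested, where edgeR called 0 (1098 at an unadjusted p under 0.05) and limma-voom 0, and 1 gene of the pathway lists. The cause of these differences was not tested. Counts of the 10 genes were at least 1036 in each library.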
